A study of Mus musculus with 34 samples.

Results

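Genes named Zfp followed by a number encode zinc-finger proteins, and chromosome 7 carries one of the mouse genome's large collections of them. Members were all protein-coding genes of chromosome 7 whose symbol is Zfp, digits and at most 1 final letter. That rule uses position and name and no measured value, and it found 93 of the 21631 genes that code for proteins on chromosomes 1 to 19 and X. The libraries came from C2C12, an immortalized mouse myoblast line, profiled by multi-target chromatin integration labeling, in which an antibody-guided probe is integrated by Tn5 transposase beside its target and the neighbouring DNA is amplified as RNA. Dual-stained libraries, 3 per group, covered H3K4me3 and CTCF together at 10000 and at 1000 cells, and H3K27ac and elongating RNA polymerase II (Pol2S2P) together at 1000 and at 100 cells. Single-stained libraries, 2 per group, covered CTCF at 10000 cells and Pol2S2P at 1000 cells. The labels name no treatment and do not say whether replicate libraries were grown as independent cultures. The spread behind each p-value is therefore that among libraries, which may be technical. The 28 libraries held 719766 to 6653298 counts each on the autosomes and X.

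Most Zfp proteins carry arrays of C2H2 zinc fingers that read DNA, and many also carry a KRAB domain. KRAB recruits TRIM28, which brings in SETDB1 and the H3K9me3 mark, and retroelements are the best known targets. The genes spread by tandem duplication, which left them in clusters. A few members work differently: Zfp36 encodes tristetraprolin, a CCCH-type protein that binds AU-rich mRNAs and speeds their decay, and Zfp143 encodes a promoter-binding activator. H3K4me3 and H3K27ac mark active promoters, CTCF is the insulator-binding protein of chromatin loops, and Pol2S2P is the form of polymerase that travels through transcribed genes.

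The members lay in 21 runs, a new run being begun at a gap of over 500 kb, and the 9 runs of 4 or more held 80 members. The most crowded was Zfp84 to Zfp146, with 15 members, and Zfp180 to Zfp526 held 14. Genes measured from 2445 bp (Zfp36) to 456017 bp (Zfp536), with a median of 14.9 kb. A strand was given for 85 members. For these, the start was the 5 bins of 1 kb within 2 kb of the span's 5′ end, the far end was the same at the other end, and the interior was what lay between them, with bins more than 2 kb from either end. The interior needs no strand, and 82 of the 93 members had one. Zfp784 and Zfp580 share the same start bins and so repeat 1 measurement. Another gene overlapped 15 of the 85 starts (17.6%, against 24.6% of all starts). Every one of the 425 bins at member starts held a count in some library, against 2.78% of empty bins over all starts.

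Promoters of 4 members are printed to set CG content beside H3K4me3. They are the members with the highest and lowest H3K4me3 at the annotated start among those with 15 or more CG and among those with under 10 CG in the 300-base window, and so were chosen after their values were seen. Each runs 5′ to 3′ on the gene's strand from 250 bases before to 50 after the RefSeq start in GRCm38.p6, with CG dinucleotides in capitals. Zfp592 (chr7:80993434-80993733, plus strand) had 42 CG and a density of 25.7. Zfp84 (chr7:29768302-29768601, plus strand) had 9 CG and 24.9. Zfp536 (chr7:37769703-37770002, minus strand) had 22 CG and 0.487. Zfp773 (chr7:7136706-7137005, minus strand) had 7 CG and 0.178.
Zfp592: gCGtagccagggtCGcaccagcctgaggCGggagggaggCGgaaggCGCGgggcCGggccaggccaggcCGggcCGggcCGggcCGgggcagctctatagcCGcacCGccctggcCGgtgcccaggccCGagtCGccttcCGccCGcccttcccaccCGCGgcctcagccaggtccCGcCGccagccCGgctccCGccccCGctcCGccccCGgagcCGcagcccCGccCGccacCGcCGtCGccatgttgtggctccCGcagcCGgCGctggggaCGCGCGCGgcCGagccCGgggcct
Zfp84: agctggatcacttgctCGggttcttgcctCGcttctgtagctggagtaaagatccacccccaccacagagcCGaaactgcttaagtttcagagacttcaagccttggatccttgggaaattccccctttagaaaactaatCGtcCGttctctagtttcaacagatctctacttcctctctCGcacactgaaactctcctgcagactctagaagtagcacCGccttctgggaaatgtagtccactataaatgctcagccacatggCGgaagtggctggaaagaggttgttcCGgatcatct
Zfp536: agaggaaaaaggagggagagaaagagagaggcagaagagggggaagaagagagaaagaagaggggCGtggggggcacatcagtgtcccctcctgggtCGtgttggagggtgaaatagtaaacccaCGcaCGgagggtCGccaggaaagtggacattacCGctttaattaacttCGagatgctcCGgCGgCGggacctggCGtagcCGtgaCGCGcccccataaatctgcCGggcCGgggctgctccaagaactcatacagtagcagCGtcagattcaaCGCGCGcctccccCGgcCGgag
Zfp773: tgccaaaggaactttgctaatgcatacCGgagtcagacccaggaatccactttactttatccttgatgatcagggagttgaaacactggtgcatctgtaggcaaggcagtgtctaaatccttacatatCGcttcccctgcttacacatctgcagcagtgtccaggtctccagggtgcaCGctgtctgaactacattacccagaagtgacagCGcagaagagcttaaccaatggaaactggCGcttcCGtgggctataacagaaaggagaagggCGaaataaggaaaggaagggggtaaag
Density here is the count per bin relative to the genome mean, so 1 is the mean, for H3K4me3 at 10000 cells over the bins within 2 kb of the annotated start.

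Of 7 motifs searched, 2 are shown in the members that hold them, as 30-base windows with the motif in capitals, because their shares among the members and among all 17274 promoters were furthest apart in ratio, of the motifs found in any member. The 10-base consensus of NRF1, a factor of promoters for mitochondrial and metabolic genes, is its own reverse complement and was present in 6 of 85 member promoters (7.06%), against 1.35% of all promoters.
Zfp30: gctcccttgtGCGCATGCGCattgaagcag
Zfp82: agtgagtgtgGCGCATGCGCacgcggtgcg
Zfp141: cagtggtagcGCGCATGCGCgccgtccccg
Zfp329: accaggatctGCGCATGCGCagttgttgcg
Zfp658: aaatagtagcGCGCATGCGCttcgccagcc
Zfp719: cagtggtggtGCGCATGCGCgccacccagg
A 10-base part of the element that ZFP143 binds was present in 4 of 85 (4.71%), against 0.446% of all promoters. All 4 held it on the opposite strand, so the capitals show its reverse complement.
Zfp93: ggaattctggGAATTGTAGTtccaacgcca
Zfp108: ggcattctggGAATTGTAGTtctggagcca
Zfp128: ggccttctggGAATTGTAGTctcagtgtcc
Zfp180: agagttctggGAATTGTAGTtccattgagc
In GRCm38.p6 the windows are, in the same order, chr7:29783950-29783979 (plus), chr7:30072920-30072949 (minus), chr7:42505810-42505839 (minus), chr7:12818843-12818872 (minus), chr7:43562162-43562191 (plus), chr7:43579521-43579550 (plus), chr7:24270338-24270367 (plus), chr7:24254718-24254747 (plus), chr7:12881154-12881183 (plus) and chr7:24081866-24081895 (plus). The 6 promoters with the first motif had H3K4me3 densities of 3.21 to 18.9, and the 4 with the second had 1.61 to 22.8, so neither motif went with a single level. Among 244 Zfp promoters of other chromosomes, each of these 2 motifs was present in 2.05%. The 5 other motifs searched on both strands were TATAAA (5.88% of members, 13.4% of all), GGGCGG (37.6% and 46.9%), CCGGAAGT (12.9% and 5.34%), the YY1 motif (1.18% and 1.27%) and the CTCF core motif (0 of 85 and 0.0116%). These shares carry no test, GGGCGG and CG counts overlap in letters, and a match is not a site.

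H3K4me3 marked most member starts. Its median density was 6.73 over the 85 starts at 10000 cells, against 2.33 over all 17274 protein-coding starts, and 6.62 over 244 Zfp starts of other chromosomes. The other 1657 starts of chromosome 7 had a median of 0.72. At 10000 cells 64 members (75.3%) were above 2 in every library, against 48.2% of all starts, and 6 (7.06%) were below 1 in every library, against 28.6%. Means were closer than medians, at 8.44 for the members and 8.64 for all starts. CTCF had a median of 2.02, against 1.99 over all starts. H3K27ac had 1.32, against 1.34, and Pol2S2P had 1.56, against 1.49, at 1000 cells. Single-stained Pol2S2P had 2.54, against 1.95.

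**Figure D1:**
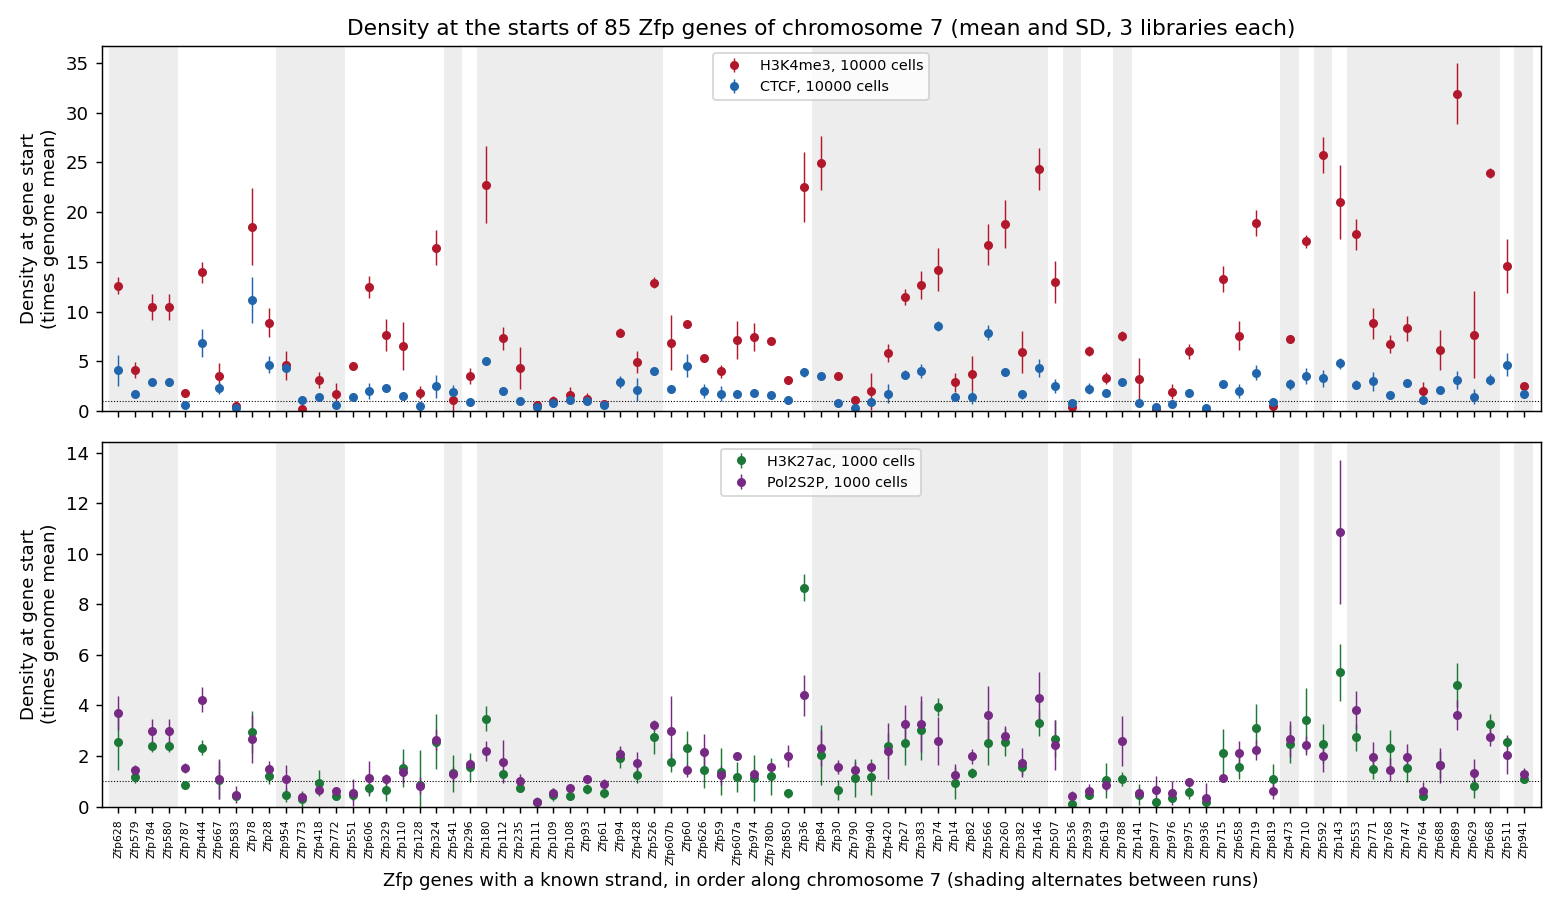
Mean density at the start of each of the 85 stranded members in order along the chromosome, with SD over 3 libraries, for H3K4me3 and CTCF at 10000 cells (upper) and H3K27ac and Pol2S2P at 1000 cells (lower); shading alternates between runs and the dotted line is the genome mean. H3K4me3 ran from 0.12 (Zfp936) to 31.9 (Zfp689), and Zfp36 and Zfp143 stood out in the lower panel, at 8.66 for H3K27ac and 10.9 for Pol2S2P.

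The 8 highest H3K4me3 starts at 10000 cells were Zfp689 at 31.9 ± 3.06 (SD, n = 3 libraries here and below), Zfp592 at 25.7 ± 1.80, Zfp84 at 24.9 ± 2.73, Zfp146 at 24.4 ± 2.11, Zfp668 at 24.0 ± 0.491, Zfp180 at 22.8 ± 3.87, Zfp36 at 22.5 ± 3.51 and Zfp143 at 21.003 ± 3.74. Zfp668 encodes a protein whose human counterpart is linked to DNA repair. From Zfp592 down to Zfp143 each neighbour in that order lay within the larger SD of the pair. The 8 lowest were Zfp936 at 0.12 ± 0.214, Zfp773 at 0.18 ± 0.308, Zfp977 at 0.25 ± 0.429, Zfp536 at 0.37 ± 0.371, Zfp583 at 0.48 ± 0.541, Zfp819 at 0.54 ± 0.178, Zfp111 at 0.64 ± 0.237 and Zfp61 at 0.67 ± 0.394. Zfp536 is a negative regulator of neuronal differentiation. By run, the median H3K4me3 density was 10.49 for the 4 stranded starts of Zfp628 to Zfp580. That median is the 1 measurement which Zfp784 and Zfp580 repeat, beside Zfp628 at 12.6 and Zfp579 at 4.12. The median was 8.69 for the 14 of Zfp84 to Zfp146 and 8.31 for the 9 of Zfp553 to Zfp646. It was 3.21 for the 9 of Zfp141 to Zfp819 and 2.41 for the 4 of Zfp954 to Zfp772.

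The 8 members without a strand were measured at both ends. Zfp568, a KRAB gene known in mouse for repressing a placental Igf2 promoter, had H3K4me3 of 21.8 ± 2.14 at the low-coordinate end and 1.29 at the other. The low ends of Zfp646 (23.95), Zfp574 (18.8), Zfp865 (16.8) and Zfp446 (4.96) all lie in bins shared with other genes, Zfp668 in the case of Zfp646. Zfp524 had 15.2 and 13.9 at its ends, both in shared bins, and the other end of Zfp446, which is not shared, had 0.915. Zfp114 stayed at 0.21 or below and Zfp575 at 0.83 or below.

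Signal was sharp at the annotated start. In the bin holding the start, H3K4me3 averaged 20.7 over the members and 15.9 over all genes. At 1 kb downstream it averaged 10.0, against 12.7, and at 2 kb 3.70, against 5.94. CTCF averaged 5.29 at the start bin, against 4.44, H3K27ac 2.30 in both, and Pol2S2P 2.49, against 2.20. At 5 kb downstream all of these averages were lower over the members than over all genes, with H3K27ac at 0.868 against 1.52.

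**Figure D2:**
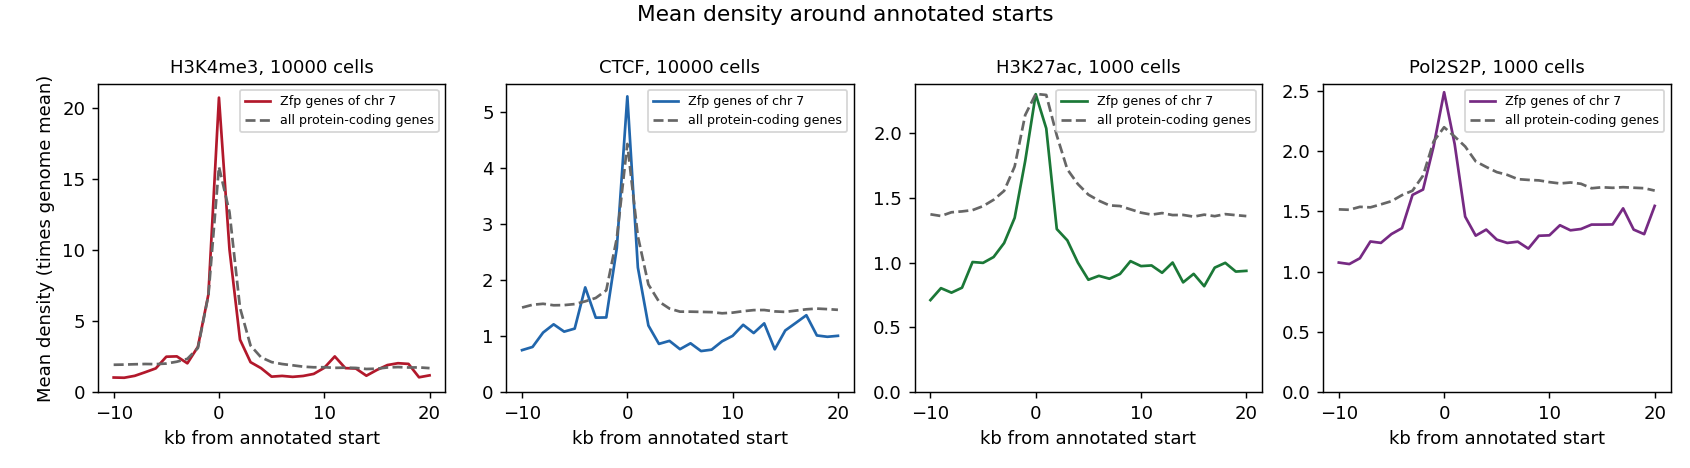
Mean density in 1 kb bins from 10 kb before to 20 kb after the annotated start, over the 85 members (solid) and all protein-coding genes (dashed), for H3K4me3 and CTCF at 10000 cells and H3K27ac and Pol2S2P at 1000 cells. In the bin that holds the start the member lines are above the others for H3K4me3, CTCF and Pol2S2P. From 2 kb downstream on they lie below them for CTCF, H3K27ac and Pol2S2P, while for H3K4me3 they lie above at a few distances, such as 11 kb downstream (2.52 against 1.72).

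The single strongest H3K4me3 bin of a gene span with 2 kb on either side lay within 1 kb of the annotated start in 68 of 85 members. The strongest CTCF bin did so in 56. For H3K27ac it was 33 and for Pol2S2P 26. The strongest H3K4me3 bins were in Zfp146 (68.5), Zfp568 (67.0), Zfp689 (63.2), Zfp84 (62.4) and Zfp574 (62.0). The strongest CTCF bin was the same bin as the strongest H3K4me3 bin in 64 of 93 members. Across the 85 starts, CTCF and H3K4me3 densities at 10000 cells had a Spearman rho of 0.878, which describes genes sharing libraries, regions and mappability. In the same way H3K4me3 had a rho of 0.945 between 10000 and 1000 cells, and CTCF 0.935 between dual and single staining.

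Some strong CTCF bins lay far from the start. Zfp78 had the highest, 34.1 ± 7.60, within 1 kb of its start, with H3K4me3 of 47.3 in that bin. Zfp607b had 25.2 ± 2.90 at 10.7 kb inside the gene, with H3K4me3 of 29.2. Zfp541 had 23.8 ± 1.31 at 26.6 kb, just past the far end of its span, with H3K4me3 of 49.04. In contrast Zfp444 had 20.9 ± 1.17 at 19.0 kb, with H3K4me3 of 7.74, Zfp536 had 18.7 ± 1.43 at 411 kb, with 3.43, and Zfp143 had 13.2 ± 5.41 at 22.4 kb, with 2.56. The single-stained libraries had 17.8, 14.8 and 10.6 in the Zfp444, Zfp536 and Zfp143 bins, so the CTCF signal there was present in both stainings.

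H3K4me3 density was compared with CTCF from the same staining, with edgeR's quasi-likelihood test fitted over all starts. At 10000 cells 67 member starts passed the count filter, 63 were higher for H3K4me3 and 0 lower; over all 9611 starts tested 79.0% were higher and 8.25% lower. The members' median log2 fold change was 1.68, against 1.74 over all starts. A start can pass the filter through its H3K4me3 reads alone, so the share among those that passed is no support for the direction. With no filter 69 of 85 members were higher and 1 lower, where 45.0% of all 16924 starts were higher and 7.62% lower. At 1000 cells 36 of 39 were higher and 0 lower, where 83.7% and 4.98% of all starts were, and the median was 1.93 in both. With no filter 48 of 85 were higher and 0 lower, where 40.4% and 4.99% of all starts were. All 39 starts tested at both cell numbers had the same sign and 36 were higher at both. The 4 not called at 10000 cells were Zfp667 at 0.62, Zfp941 at 0.52, Zfp954 at 0.04 and Zfp541 at −0.70. The scale mattered: with TMM factors, which move the median over all starts to 0.02, 17 were higher and 11 lower at 10000 cells and 5 higher and 6 lower at 1000 cells. DESeq2 gave 16 and 7, and 7 and 6. Of all starts, TMM factors made 34.1% higher and 34.6% lower at 10000 cells, and 25.03% and 27.4% at 1000 cells. The shares with DESeq2 were 23.1% and 28.3% at 10000 cells, and 15.1% and 19.6% at 1000 cells.

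Zfp689 had 66.3, 54.7 and 60.7 CPM for H3K4me3 at 10000 cells, against 4.04, 7.25 and 6.64 CPM for CTCF. The groups were far apart in all libraries, with a log2 fold change of 3.32 (SE 0.16, adjusted p = 7.59e-92). Zfp592, Zfp668, Zfp84 and Zfp553 followed at 2.98, 2.94, 2.80 and 2.74. Zfp36 had 50.1, 37.0 and 41.4 CPM, against 7.07, 6.68 and 8.36 for CTCF (2.53, SE 0.17, adjusted p = 3.35e-48). Zfp143 had 46.6, 32.4 and 40.7 CPM, against 8.49, 8.59 and 10.3 (2.11, SE 0.17, adjusted p = 2.01e-35). Zfp78 and Zfp444, which carry strong CTCF bins, differed less, at 0.74 (SE 0.15) and 1.00 (SE 0.17). Among members with a described role, Zfp260, a heart GATA4 partner, stood at 2.22, Zfp110, an interactor of the neurotrophin receptor, at 2.07, Zfp296, expressed in pluripotent cells, at 1.99, Zfp420 at 1.69, and Zfp473, whose human counterpart takes part in histone mRNA processing, at 1.46. With TMM factors Zfp473 stood at −0.25, Zfp420 at −0.022, Zfp628 at −0.062 and Zfp667 at −1.09.

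**Figure D3:**
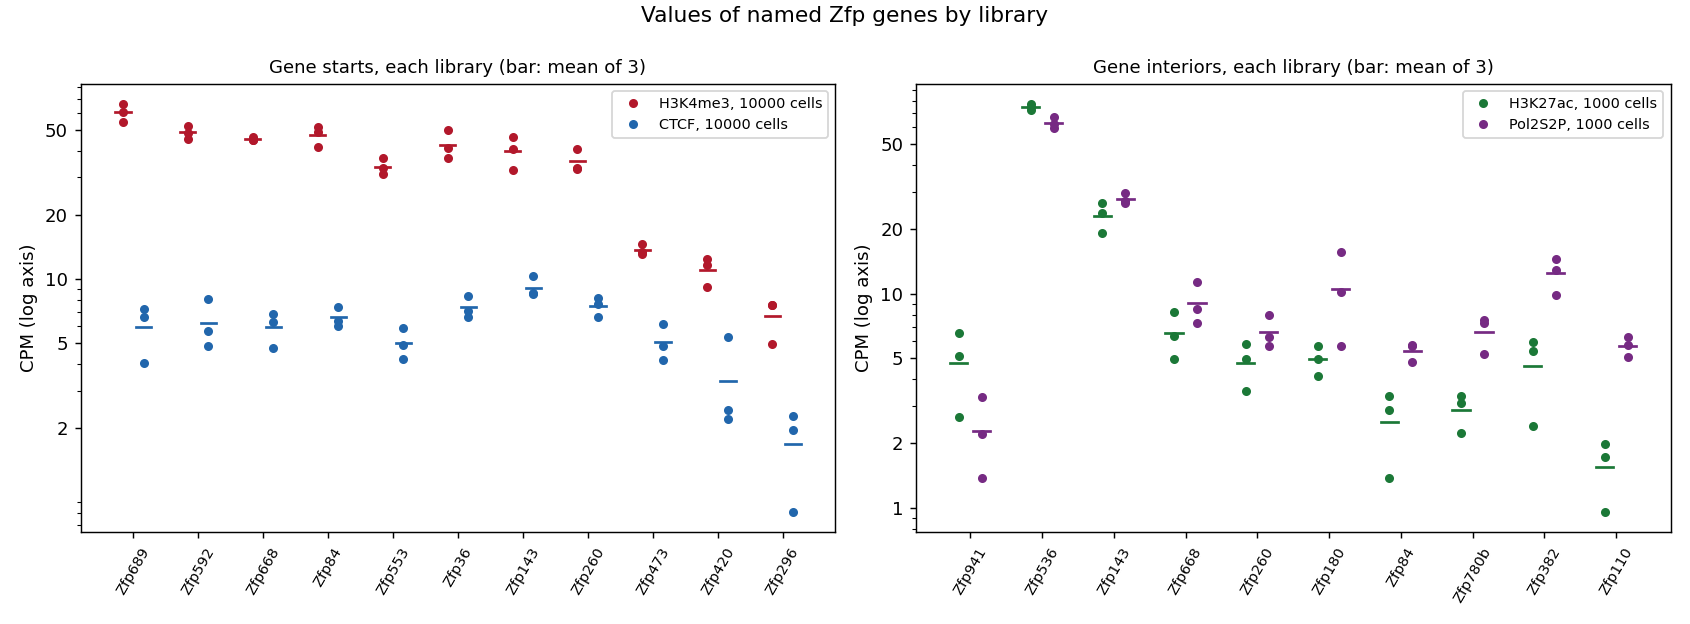
CPM of named members in every library on a log axis, with H3K4me3 and CTCF at 10000 cells at gene starts (left) and H3K27ac and Pol2S2P at 1000 cells in gene interiors (right); points are libraries and bars are means of 3. H3K4me3 points lie above CTCF points for all genes shown at starts, while in interiors most genes shown lie lower for H3K27ac than for Pol2S2P.

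H3K27ac and Pol2S2P differed at few member starts. At 1000 cells 1 of 42 was higher for H3K27ac and 3 lower, against 9.96% and 7.43% of all 8206 starts. Zfp36, an immediate-early gene, had 15.3, 17.2 and 16.9 CPM for H3K27ac, against 6.58, 9.18 and 9.31 for Pol2S2P, with no overlap (log2 0.98, SE 0.23, adjusted p = 0.000487). Zfp143 had 12.4, 9.61 and 8.26 CPM for H3K27ac, against 17.0, 26.9 and 18.03 for Pol2S2P, again with no overlap (−1.01, SE 0.21, adjusted p = 6.05e-05). Its Pol2S2P density was the highest of the members, at 10.9 ± 2.86 in dual staining, 12.3 ± 2.08 at 100 cells and 23.9 ± 0.328 in single staining (n = 2). Zfp444 (−0.87) and Zfp788 (−1.24) were also lower. Without H3K27ac replicate 1 or without Pol2S2P replicate 1, 1 member was higher and 1 lower. At 100 cells 1 of 3 members tested was lower, Zfp143 at −2.04 (SE 0.39), against 5.26% of all starts. Without filtering, 2 of 84 members (2.38%) were lower at 100 cells, against 0.640% of all starts.

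Fewer far ends had enough reads. H3K4me3 exceeded CTCF at 7 of the 14 far ends that passed the count filter and fell below it at 3, against 34.9% and 27.5% of all far ends tested. A far end can pass the filter through the target where it is high, so these shares are no support for a direction. With no filter 9 of 85 were higher (10.6%) and 3 lower (3.53%), against 10.7% and 9.96% of all far ends. Zfp580 (2.06), Zfp36 (1.94), Zfp768 (1.91), Zfp771 (1.16) and Zfp688 (1.07) were higher; Zfp580 and Zfp771 share far-end bins with other genes. The far ends of short genes also overlap their own starts, by 3 of 5 bins in Zfp768, 2 in Zfp36 and 1 in Zfp688. Zfp941 had 1.41, 0 and 0.69 CPM for H3K4me3, against 4.85, 4.39 and 4.92 CPM for CTCF (−2.85, SE 0.62), and Zfp444 stood at −1.68 and Zfp536 at −1.04. H3K27ac was lower than Pol2S2P at 8 of 19 far ends and higher at 1, against 43.8% and 5.55% of all far ends, with Zfp36 as the higher one (0.73). Zfp296 (−1.84), Zfp780b (−1.78), Zfp626 (−1.54), Zfp444 (−1.37) and Zfp420 (−1.30) were the lowest. The far end of Zfp296 holds 2 bins of its own start and is shared with another gene. With TMM factors or DESeq2, 1 far end was called, Zfp36 in both cases. Over all far ends 15.7% were higher and 11.2% lower with TMM factors, and 3.77% and 3.34% with DESeq2.

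Median interior densities were 0.97 over the members, against 1.15 over all genes, for H3K4me3, 0.64 against 1.20 for CTCF, 0.85 against 1.15 for H3K27ac and 1.22 against 1.45 for Pol2S2P. Zfp574 had the highest interior density for H3K4me3, at 14.1 ± 1.48, for H3K27ac, at 2.85 ± 1.58, and for Pol2S2P, at 2.85 ± 0.756. Zfp607b had the highest for CTCF, at 3.55 ± 0.286. H3K4me3 was higher than CTCF in 20 of 49 interiors and lower in 3, against 26.1% and 36.7% of all interiors, with a median log2 fold change of 0.43 against −0.13. Zfp interiors of other chromosomes lay near the members, with 36.6% of 191 higher, 12.6% lower and a median of 0.39. Among the members, Zfp574 (2.85), Zfp428 (2.27), Zfp790 (2.18), Zfp260 (1.59) and Zfp787 (1.49) were the highest, and Zfp428, Zfp790 and Zfp787 have their annotated start inside the interior. Zfp536 (−0.81), Zfp936 (−0.79) and Zfp143 (−0.53) were lower. Taking interiors from 5 kb inside gave 3 higher and 4 lower of 23. With no filter 23 of 82 interiors were higher (28.0%) and 3 lower (3.66%), against 21.5% and 29.2% of all interiors.

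H3K27ac was lower than Pol2S2P in 13 of 53 interiors and higher in 2, against 38.1% and 9.94% of all interiors, with median log2 fold changes of −0.42 and −0.31. Zfp110 had 0.956, 1.99 and 1.72 CPM for H3K27ac, against 5.76, 5.06 and 6.31 CPM for Pol2S2P, with no overlap (−1.86, SE 0.45, adjusted p = 0.000148). Zfp382 (−1.41), Zfp780b (−1.20), Zfp84 (−1.09) and Zfp180 (−1.08) followed. Zfp941 (1.05) and Zfp536 (0.25) were higher, and Zfp941 overlapped between groups. With TMM factors 2 of 53 were higher and 4 lower, against 20.6% and 19.5% of all interiors. With DESeq2 1 of 82 was higher and 1 lower, against 12.8% and 10.1%. Without Pol2S2P replicate 1 there were 9 calls. With no filter 14 of 82 were lower and 2 higher, against 29.8% and 7.68% of all interiors.

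Cell number changed few starts. H3K4me3 at 10000 cells was higher than at 1000 cells at 8 of 56 member starts and lower at 0, against 4.44% and 0.0764% of all 7857 starts, and against 5 of 146 Zfp starts elsewhere. Zfp78 had 26.8, 38 and 40.7 CPM at 10000 cells, against 12.5, 20.5 and 12.3 CPM at 1000 cells, with no overlap (1.16, SE 0.24, adjusted p = 0.00138). Zfp420 (1.39), Zfp788 (1.22), Zfp606 (0.94), Zfp324 (0.82), Zfp260 (0.77), Zfp719 (0.75) and Zfp84 (0.60) were the others. TMM factors gave 1 such call, DESeq2 0 and no filter 1, where 0.204%, 0.00601% and 1.02% of all starts were higher. Leaving out any 1 library gave 1 to 4. For CTCF 0 of 60 starts were called between 10000 and 1000 cells in edgeR (10 at an unadjusted p under 0.05; DESeq2 0), where 0.189% of all starts were higher and 0.00995% lower at 10000 cells. For H3K27ac between 1000 and 100 cells 0 of 20 starts were called in edgeR (1 at an unadjusted p under 0.05; DESeq2 0), and 0 of all 5395 starts were. For Pol2S2P 0 of 49 interiors were called between 1000 and 100 cells (3 at an unadjusted p under 0.05; DESeq2 0), where 0.00828% of all interiors were higher and 0.00828% lower at 1000 cells. Without CTCF replicate 2 at 1000 cells, 2 CTCF starts were called. An interaction term for cell number passed the threshold in edgeR at 0 of all 9158 starts for H3K4me3 over CTCF, 65 of them members (3 members at an unadjusted p under 0.05). For H3K27ac over Pol2S2P it passed at 0 of 7758, 34 of them members (1 at an unadjusted p under 0.05).

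Staining in pairs or alone made no called difference for CTCF at starts, with 0 of 70 members past the threshold (7 at an unadjusted p under 0.05; DESeq2 0) and 0.134% and 0.0251% of all starts. For Pol2S2P interiors, dual staining was higher in 4 of 60 and lower in 11, against 10.9% and 15.2% of all interiors. Zfp936 had 10.1, 12.03 and 8.41 CPM in dual staining, against 3.97 and 2.46 CPM in single staining (1.60, SE 0.37, adjusted p = 0.000338). Zfp787 had 18.1, 19.9 and 18.6 CPM in dual staining, against 38.3 and 40.6 CPM in single staining (−1.06, SE 0.17, adjusted p = 1.42e-07). Neither gene overlapped between the groups. Zfp61 (−1.64) and Zfp428 (−1.23) were lower still. Leaving out single-stained replicate 1 gave 7 calls and replicate 2 gave 9. DESeq2 gave 1 of 82 higher and 2 lower, against 5.28% and 3.56% of all interiors.

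In all, 13 members had their RefSeq start more than 2 kb inside the gene span (15.3%, against 7.27% of all genes). In 10 of these H3K4me3 at 10000 cells was higher at the annotated start than at the span end, with medians of 3.80 and 1.09. Zfp787 had 14.2 ± 2.14 at the annotated start, against 1.85 ± 0.027 at the end, and Zfp790 had 13.7 ± 0.962, against 1.09 ± 0.355. Zfp428 had 14.4 ± 1.16, against 4.93 ± 1.10, and Zfp61 had 4.31 ± 1.16, against 0.67 ± 0.394. Zfp626 (3.80 against 5.36), Zfp580 (7.05 against 10.5) and Zfp541 (0.872 against 1.08) went the other way. The span-end bins of Zfp580 are also the start bins of Zfp784. Over all 85 members the median at the annotated start was 7.08, against 2.42 over all genes.

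**Figure D4:**
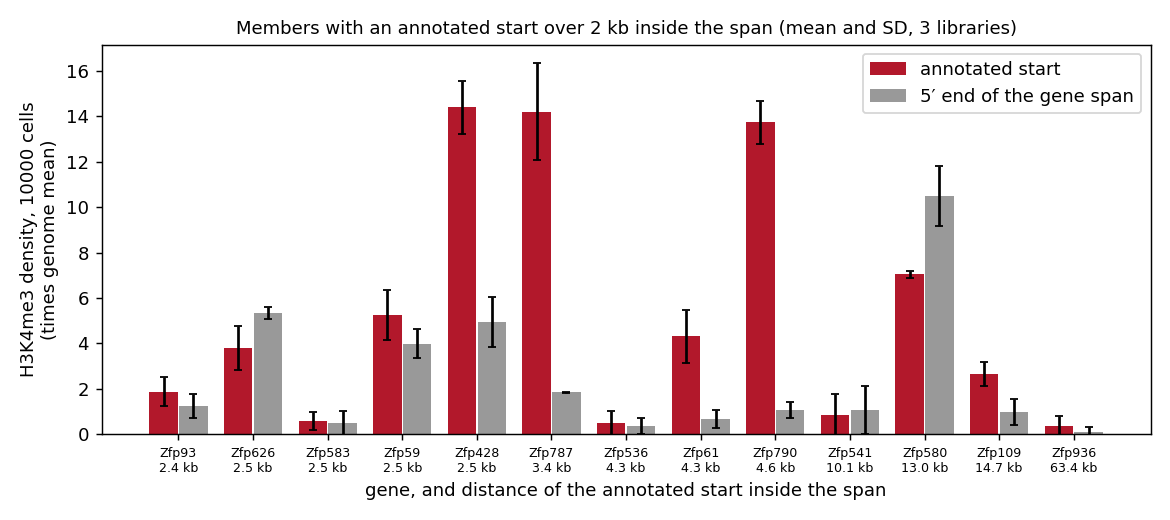
H3K4me3 density at 10000 cells at the annotated start (red) and at the 5′ end of the span (grey) for the 13 members whose annotated start lies over 2 kb inside, ordered by that distance; bars are means and whiskers SD over 3 libraries. Zfp787, Zfp790 and Zfp428 show the widest gaps in favour of the annotated start, and Zfp580 the widest in the other direction. The span-end bins of Zfp580 are also the start bins of Zfp784.

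The 85 promoters had a median of 14 CG (quartiles 8 and 19) and 54.7% GC, against 14 (4 and 24) and 56.3% over all genes. The Spearman rho between CG count and H3K4me3 density was 0.303 over the 85 members, 0.389 over 244 Zfp genes of other chromosomes and 0.620 over all 17274. These are descriptions, since the promoters share libraries and the differences were not tested. Median density was 7.60 for the 42 members with 15 or more CG, 5.93 for the 36 with 5 to 14 and 3.80 for the 7 with fewer. Zfp84, with 24.9 at 9 CG, and Zfp536, with 0.487 at 22 CG, depart from an order by CG count.

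**Figure D5:**
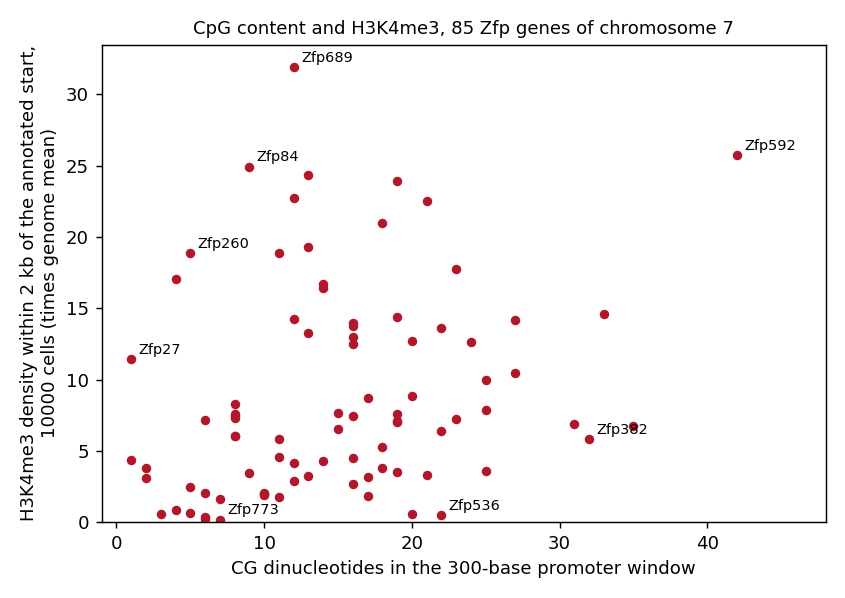
H3K4me3 density within 2 kb of the annotated start at 10000 cells against the number of CG dinucleotides in the 300-base promoter window, 1 point per member. Below 15 CG the points run from 0.178 (Zfp773) to 31.9 (Zfp689), and the rightmost point is Zfp592, at 25.7 with 42 CG.

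The corepressors that KRAB proteins recruit, and their partners, were looked at beside the members. Of 24 listed genes 22 had a start, with a median H3K4me3 density of 20.1 at 10000 cells. Trim28, on chromosome 7, had 17.6, Setdb1 had 8.68 and Cbx5, a reader of H3K9me3, had 77.1, while Dnmt1 had 1.58. H3K4me3 was higher than CTCF at 20 of 20 tested starts at 10000 cells, where 79.0% of all starts were, and at 18 of 19 at 1000 cells, against 83.7%. These starts too can pass the count filter through H3K4me3 reads alone, so the shares are no support for the direction. With no filter 20 of 22 were higher at 10000 cells and 18 of 22 at 1000 cells, where 45.0% and 40.4% of all starts were. With TMM factors 14 were higher and 1 lower at 10000 cells, and 9 higher and 1 lower at 1000 cells. Of all starts, 34.1% were higher and 34.6% lower with these factors at 10000 cells, and 25.03% and 27.4% at 1000 cells. DESeq2 gave 17 higher and 0 lower at 10000 cells, and 10 higher and 1 lower at 1000 cells. With DESeq2 23.1% of all starts were higher and 28.3% lower at 10000 cells, and 15.1% and 19.6% at 1000 cells. In interiors H3K27ac was lower than Pol2S2P in 19 of 21, where 38.1% of all interiors were. It was lower in 13 with TMM factors, against 19.5% of all interiors, and in 9 of 23 with DESeq2, against 10.1%. As a check of the label, 5 of 8 listed myoblast markers had a start, with H3K4me3 densities of 6.05 (Chrna1) to 74.8 (Vim) and Myf5 at 33.0. The 3 blood markers with a start were at 0.82 or below, the 3 pluripotency markers at 1.58 or below, and the endothelial marker Tek at 1.27. Alb and Apoa1, of liver, were at 0.089 and 2.12, and the neuronal markers Rbfox3 and Tubb3 at 0.42 and 5.97, so Tubb3 lay close to the lowest myoblast marker.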

How the data were processed

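The authors deposited read counts per 1 kb bin of the genome (GRCm38), per the file headers; the submitters' processing notes name bcl2fastq, HISAT2 2.1.0 and deepTools 3.3.1. Counts were made by the authors without normalization, and their read filters are not given in the sources used here. Of 34 samples, 28 libraries were matched to a column by title; 6 samples are not analysed here and 4 columns that matched no sample were not used. Bins on the autosomes and X were kept, except 9 bins whose mean passed 50 genome means in each group. Gene spans, strands and promoters came from RefSeq tables (GRCm38.p6).

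Counts were summed over each gene's start, far end and interior. Density is the count per bin over the library's genome mean, and CPM uses a total of 1000000. Differences were tested over all features with edgeR 4.0.16 (R 4.3.3) quasi-likelihood tests, library totals as sizes, filterByExpr, Benjamini-Hochberg adjustment and a threshold of 0.05. The scripts were tested on simulated data. Only the 2 groups compared entered each fit. Alternatives were TMM factors, DESeq2 1.42.0, no filter, other windows, members with shared bins left out, hot bins kept and a replicate block. Each library was also left out in turn. Starts from the promoter table were an alternative chosen after seeing the data. Replicates of each group differed by more than sampling noise, so none was merged. With 719766 to 6653298 counts a library, a 5-bin start at the genome mean holds few reads in the shallowest.

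Members named in a comparison were those past the threshold with the largest fold changes in each direction (up to 5), the 8 highest and 8 lowest H3K4me3 starts, the highest interiors and 14 members with a described role. All called H3K4me3 starts between cell numbers, the strongest CTCF bins and the printed sequences were named after their values were seen. The members and lists were chosen with earlier results of these data known. Protein features planned for these genes were not run.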

Additional observations from a re-analysis of the deposited data

How the results depend on the processing

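At H3K4me3 over CTCF starts, the number of members called was 63 (10000 cells) and 36 (1000 cells). TMM factors gave 28 and 11, and DESeq2 gave 23 and 13; the cause was not tested beyond the shift of the all-gene median. In H3K27ac over Pol2S2P the 4 calls at 1000-cell starts became 2 with DESeq2 and 2 with a 1 kb window, 2 to 5 without 1 library, and the 1 call at 100 cells became 2 without filtering. The 10 far-end calls of H3K4me3 over CTCF, among 14 members tested, became 4 with a 1 kb window, where 4 members were tested. Leaving out members with shared bins gave 6 calls among the 7 members that remained. The 9 of H3K27ac over Pol2S2P became 1 with TMM factors, 1 with DESeq2, 17 without filtering and 0 with a 1 kb window, where 3 members were tested. The 23 interior calls of H3K4me3 over CTCF became 7 from 5 kb inside, where 23 members were tested. The 15 of H3K27ac over Pol2S2P became 6 with TMM factors and 2 with DESeq2, and 9 to 17 without 1 library. The 8 H3K4me3 calls between cell numbers became 1 with TMM factors, 0 with DESeq2, 1 without filtering and 5 with a 1 kb window. The 15 Pol2S2P interiors between stainings became 3 with DESeq2.

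Reversed signs were Zfp473 (−0.25), Zfp420 (−0.022), Zfp628 (−0.062) and Zfp667 (−1.09) with TMM factors at 10000 cells, Zfp473 (−0.10), Zfp260 (−0.14) and Zfp382 (−0.72) with TMM factors and Zfp382 (−0.32) with DESeq2 at 1000 cells, and Zfp606 in Pol2S2P interiors between stainings, which ran from −1.48 to 0.038 when a library was left out, the last without single-stained replicate 1. Signs were counted as reversed only where the fold change passed the threshold in the main fit or in the alternative. Of the other fold changes of named members under the alternatives, 1715 kept the side of the threshold reported, 174 no longer passed it and 6 newly passed it. Any sign changes among fold changes that passed in neither fit are counted within the 1715.

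The replicate block was tried on every comparison. Replicate numbers were not entered as pairs in the main fits, so their p-values leave any pairing out. The headers and titles give both targets of a staining the same name and number, which reads as the same stained sample. Of 12 same-numbered pairs within a staining, 3 had a correlation over 0.1 (0.03 to 0.11), and all 24 libraries correlated best with their own number. With the block, 63 member starts at 10000 cells and 36 at 1000 cells were called for H3K4me3 over CTCF. The block gave 4 H3K4me3 calls between cell numbers, against 8, and moved no other count by over 1.5 times. Shallow libraries and starts below the filter limit what low members can show.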
